A study of Mus musculus with 23 samples.

Results

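Accessible chromatin at 13 developmental transcription factor families was examined in 3T3-L1 cells, an established clonal line of mouse preadipocytes, by ATAC-seq, which reads out where a transposase can reach the DNA. The families were Hox, Meis, Pbx, Tbx, sine oculis (such as Six4 and Six5), Dlx, Msx, Prrx, Irx, Lhx, Pitx, Sox and Pax. Members were the peaks to which the authors gave a gene symbol that starts with 1 of these names followed by a number or a Hox cluster letter, with 1 peak per gene and day, that with the highest mean. The symbols were matched by name and not by measured values, and the choice between several peaks of a gene used their mean. This gave 77, 42 and 50 members on days -2, -1 and 0, out of 11026, 8998 and 9366 genes with a named peak and of 84019, 31970 and 37054 peaks in all. Over the 3 days 88 symbols matched, of which 74 were transcription factors of the families, 12 were non-coding transcripts beside them, such as Hoxaas2 and Sox1ot, and 2 were unrelated genes with the same prefix, the thromboxane synthase gene Tbxas1 and the Pax-binding protein gene Paxbp1. The annotation lists 121 genes of the 13 families.

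All cells were 3T3-L1 preadipocytes that were still sub-confluent when they were reverse-transfected with lipid-carried siRNA at 50 nM on day -3 and that had not been induced to form fat cells. The 6 groups were Kdm5c siRNA and non-targeting siRNA, called scramble, each with nuclei taken 24, 48 or 72 hours later, on days -2, -1 and 0. Each group had 4 libraries, except Kdm5c siRNA on day 0, which had 3, numbered 1, 2 and 4. Kdm5c encodes a histone demethylase that acts on lysine 4 of histone H3, and ATAC-seq does not measure the RNA that the siRNA targets. Whether the libraries of a group are separate cultures is not stated in the labels. The spread behind each p-value is that between these libraries and may be technical. In bulk nuclei, a site open in fewer cells and a site less open in each cell cannot be told apart.

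Counts in peaks totalled 4474964 to 14913397 per library, of which 781309 to 3345583 were nuclear. Mitochondrial peaks held 56.4 to 93.2% of the counts, with 56.4 to 70.0% for Kdm5c siRNA against 70.4 to 76.3% for scramble on day -2, 87.6 to 92.6% against 90.9 to 93.2% on day -1, and 78.8 to 86.8% against 87.5 to 91.4% on day 0. Of 12 fibroblast and preadipocyte markers, 10, 9 and 10 had a named peak on days -2, -1 and 0, among them Col1a1, Col1a2, Pdgfrb, Vim and Twist2, while Pdgfra and Fbn1 had none on any day. Of 16 markers of other cells, 5, 1 and 2 had one, namely Cdh5, Kdr, Tubb3, Myod1 and Des on day -2, Kdr on day -1, and Kdr and Tubb3 on day 0. The adipocyte genes Adipoq and Plin1, the leukocyte gene Ptprc and the epithelial gene Epcam had none.

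These families give embryonic cells their position and identity, and cultured fibroblasts are known to keep part of the pattern of the body site they came from. Hox genes lie in 4 clusters whose gene order follows the head-to-tail order of expression, and Meis and Pbx proteins bind DNA together with Hox proteins as cofactors. Irx, Dlx, Msx, Prrx, Lhx, Pitx, sine oculis and Pax are other homeobox or paired-box factors, of which Prrx1 and Prrx2 mark limb and craniofacial mesenchyme. Tbx factors carry a T-box, and Tbx15 is known from skeletal and adipose tissue. Sox factors carry an HMG box, and Sox9 is known for cartilage and for mesenchymal progenitors. Promoters of such genes are often rich in CG dinucleotides and can be open in cells that do not transcribe them.

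The stretches of 200 bases before the RefSeq transcription start (GRCm38.p6) are shown for 6 of these genes, 5' to 3' on the gene's strand, with each CG dinucleotide in capitals. Irx2 (chr13:72628620-72628819, plus strand) and Irx3 (chr8:91801655-91801854, minus strand) had the members with the highest or near-highest counts, Sox11 (chr12:27342719-27342918, minus strand) stands for the Sox family, and Msx1 (chr5:37824586-37824785, minus strand) and its relative Msx2 (chr13:53472781-53472980, minus strand) differed in that only Msx1 had a peak. At Dlx1 (chr2:71529245-71529444, plus strand) the start lay in a peak to which the authors gave no gene name.
Irx2: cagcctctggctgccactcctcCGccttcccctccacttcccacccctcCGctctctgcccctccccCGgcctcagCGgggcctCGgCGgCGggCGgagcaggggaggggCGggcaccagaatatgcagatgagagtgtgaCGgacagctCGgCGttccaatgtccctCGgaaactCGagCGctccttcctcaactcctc
Irx3: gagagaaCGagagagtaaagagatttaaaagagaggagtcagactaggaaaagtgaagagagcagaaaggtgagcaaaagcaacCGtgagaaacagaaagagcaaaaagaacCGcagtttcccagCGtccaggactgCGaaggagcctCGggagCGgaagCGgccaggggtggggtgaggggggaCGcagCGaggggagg
Sox11: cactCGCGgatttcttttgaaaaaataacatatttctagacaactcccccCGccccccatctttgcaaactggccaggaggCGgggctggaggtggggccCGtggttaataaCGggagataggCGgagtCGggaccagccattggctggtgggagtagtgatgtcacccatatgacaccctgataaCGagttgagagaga
Msx1: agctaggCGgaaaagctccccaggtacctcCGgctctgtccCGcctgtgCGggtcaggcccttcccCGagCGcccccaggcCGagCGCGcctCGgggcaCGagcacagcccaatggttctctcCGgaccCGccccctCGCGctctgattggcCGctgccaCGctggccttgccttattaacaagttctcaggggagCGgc
Msx2: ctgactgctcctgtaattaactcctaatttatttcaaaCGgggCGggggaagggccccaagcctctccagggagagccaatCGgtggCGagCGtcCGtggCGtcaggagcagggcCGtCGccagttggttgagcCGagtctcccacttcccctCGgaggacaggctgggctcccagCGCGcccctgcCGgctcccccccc
Dlx1: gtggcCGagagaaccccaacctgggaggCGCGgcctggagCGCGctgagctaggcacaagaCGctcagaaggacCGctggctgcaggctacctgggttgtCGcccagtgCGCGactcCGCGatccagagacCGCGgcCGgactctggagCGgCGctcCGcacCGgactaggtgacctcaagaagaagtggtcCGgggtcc
The stretches hold 15 CG dinucleotides at Irx2, 10 at Irx3, 9 at Sox11, 18 at Msx1, 14 at Msx2 and 20 at Dlx1, so Msx2 without a peak lies between the genes with one. CG reads the same on both strands, and 95.4% of the 21263 promoter windows of protein-coding genes in the RefSeq table hold at least 1. That table has a window for 79 of the 121 family genes, or 65.3%, so a comparison of base composition over the families is void. Where a start was in that table, it lay inside the chosen peak at 20 of 44 family genes on day -2, 19 of 25 on day -1 and 18 of 32 on day 0, or 45.5%, 76.0% and 56.3%, against 80.3%, 85.4% and 85.6% of all genes in the table with a named peak. The starts of Irx2, Irx3, Sox11 and Msx1 lay inside their peaks on all 3 days. The chosen Meis2 peak lay 1002, 2070 and 2158 bp from the start on days -2, -1 and 0, and the Sox5 peak lay 834419, 834431 and 834250 bp from the listed start. Values of members are therefore those of named peaks, and not of promoters throughout.

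A peak that bears the gene's own name was found for 67, 37 and 43 of the 121 family genes on days -2, -1 and 0, that is for 55.4%, 30.6% and 35.5%, against 46.4%, 38.7% and 40.2% of all 21900 protein-coding genes. All Meis genes had one on each day, as did Pbx3 and Pbx4. In the other families the genes with a named peak on all 3 days included Hoxa3, Hoxa5, Hoxc13, Hoxd3, Hoxd8, Hoxd9 and Hoxd10, then Irx1, Irx2, Irx3 and Irx5, Sox4, Sox5, Sox11 and Sox12, Six4 and Six5, Tbx3 and Tbx18, and the single genes Dlx2, Msx1, Prrx1, Lhx6, Pitx3 and Pax3. In all 33 genes had one on each day, or 44.6% of the 74 transcription factors named on any day, while 73.3% of all genes named on any day were named on every day.

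**Figure D1:**
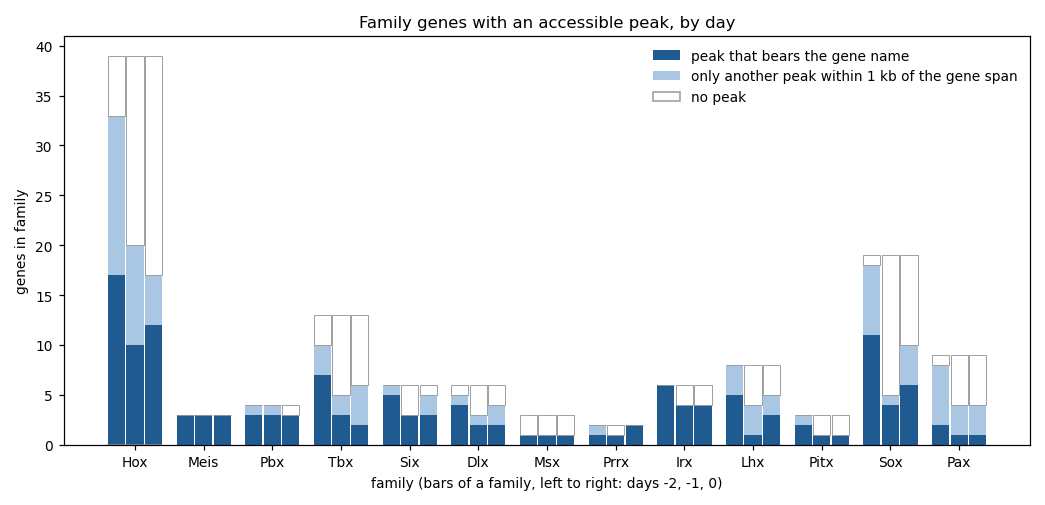
Number of genes in each family (y axis) with a peak that bears the gene name (dark), with only another deposited peak within 1 kb of the gene span (light) or with neither (white), for days -2, -1 and 0 from left to right in each family. Meis is filled on each day, and Pax rests mostly on peaks without the gene's name.

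The families differed in how many genes had a named peak. On any day one was present at 3 of 3 Meis, 6 of 6 Irx, 2 of 2 Prrx, 7 of 8 Lhx, 5 of 6 sine oculis, 3 of 4 Pbx, 13 of 19 Sox, 4 of 6 Dlx, 2 of 3 Pitx, 7 of 13 Tbx, 19 of 39 Hox, 1 of 3 Msx and 2 of 9 Pax genes. In Lhx, Lhx6, a regulator of interneuron and craniofacial development, was the single gene named on all 3 days, and over all families 27 transcription factors were named on day -2 alone. Those 27 had small peaks, with a median of 10.2 normalised counts and a width of 182 bp, against 74.9 normalised counts and 842 bp on that day for the 33 named on all days. Among all genes the values were 10.3 normalised counts and 180.5 bp for 1704 genes named on day -2 alone, and 73.7 normalised counts and 807 bp for 8449 genes named on all days. Day -2 also had the largest set of peaks and the most nuclear counts, 1816082 to 3345583 per library, so the presence of a small peak cannot be told apart from that day's depth. Genes named on day -2 alone included the pluripotency and neural factor Sox2, with 6 raw counts per library on average, and Irx4 and Irx6.

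The gene name alone missed open sites at several members. Any deposited peak within 1 kb of the gene span was present for 107, 58 and 64 of the 121 genes on days -2, -1 and 0. No peak of either kind was found on any day at 10 genes, namely Hoxa9, Hoxb1, Hoxb13, Tbx21, Tbx22, Dlx3, Msx2, Msx3, Sox14 and Pax9. Of the named transcription factors, 55, 35 and 40 had a mean of at least 10 raw counts, and 35, 20 and 28 of at least 30. The shares over all genes under these rules were not computed, so the counts have no background beside them. A peak within 1 kb of several genes counted for each of them.

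Dlx1, a forebrain and craniofacial factor, had a peak over its start on each day with no gene name (chr2:71529095-71530203 on day -2). Its normalised counts on day -2 were 129, 104, 98.2 and 132 in Kdm5c siRNA libraries 1 to 4, against 145, 115, 135 and 112 in scramble libraries 1 to 4, which overlap. Its log2 fold change (Kdm5c siRNA over scramble) was -0.14 on day -2, 0.12 on day -1 and -0.04 on day 0, with standard errors of 0.15, 0.17 and 0.18. Sox9 itself gave its name to no peak, and its highest peak bears the name BC006965, a transcript beside it, with 63.5, 26.4 and 58.4 raw counts per library on days -2, -1 and 0. On day -2 it had 79.3, 61.1, 79.4 and 68.2 normalised counts with Kdm5c siRNA against 80.96, 51.2, 44.4 and 49.1 with scramble, which overlap (log2 fold change 0.36, SE 0.20, adjusted p = 0.98 with edgeR). Hoxd1 peaks bear the name Haglr, a non-coding gene of the cluster, and reads of such overlapping genes cannot be assigned to 1 of them.

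Hox peaks were unevenly spread over the 4 clusters. Measured from the first to the last gene, the Hoxa cluster on chromosome 6 held 29, 10 and 22 peaks on days -2, -1 and 0, which covered 9.65%, 4.00% and 6.14% of it. The Hoxd cluster on chromosome 2 held 19, 8 and 7 peaks and was covered by 6.61%, 3.73% and 2.83%. The Hoxc cluster on chromosome 15 held 15, 5 and 3 peaks with 2.97%, 0.926% and 0.558% covered, and the Hoxb cluster on chromosome 11 held 12, 2 and 2 with 1.23%, 0.229% and 0.179%. In Hoxb, Hoxb9 was the single gene to give its name to a peak, on day -2. The whole peak set also differed, with 84019, 31970 and 37054 peaks on days -2, -1 and 0, so cluster counts are not compared between days. No coverage of the whole genome is given beside these shares.

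Single peaks within the clusters differed in level. The Hoxd8 peak (chr2:74704658-74706096 on day -2) held 49.1, 65.0 and 71.4 nuclear CPM (counts in a library scaled to a common nuclear total) on days -2, -1 and 0. The peak named Hoxa3 held 32.3, 43.8 and 39.03, and an unnamed peak 17 kb from the first base of the Hoxa cluster held 26.6, 45.9 and 35.7. That total is taken over each day's own peak set, so nuclear CPM are not compared between days. On the common scale of peaks matched over the days, Hoxd8 had 89.8, 90.5 and 105.2 CPM in scramble. With Kdm5c siRNA it had 89.2, 83.8 and 97.1 CPM. Hoxa3 had 61.1, 56.3 and 56.2 CPM in scramble and 56.7, 61.2 and 54.9 CPM with Kdm5c siRNA. Hoxc10, a gene of limb and trunk position, had a peak of 38.3 raw counts per library on day -2 and no peak within 10 kb of its span on days -1 and 0.

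**Figure D2:**
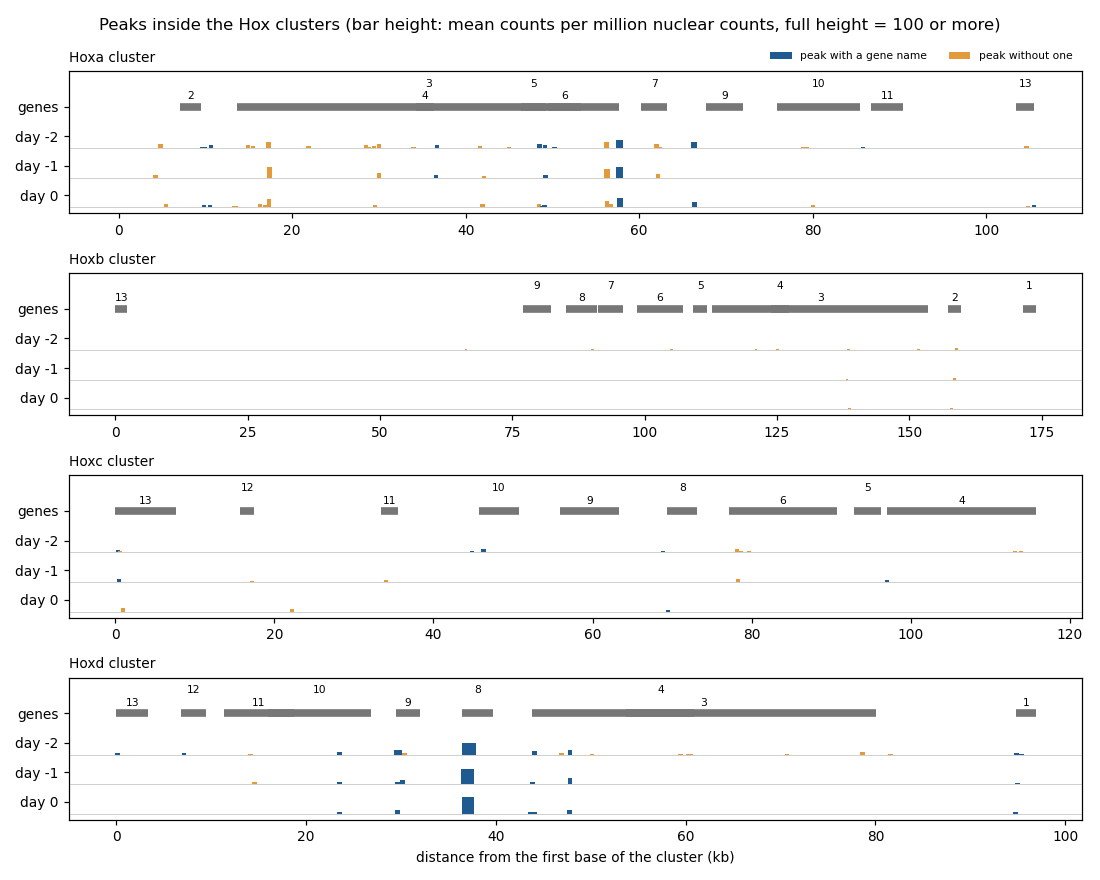
Deposited peaks in the 4 Hox clusters by distance from the first base of each cluster (x axis, kb), with a row per day and the genes above (numbers are the gene numbers of the cluster). Bar height is the mean over libraries of nuclear CPM, with 100 as full height, and colour shows whether the authors gave the peak a gene name. Heights are scaled within each day's own peak set and are not compared between days. In Hoxd the highest bar stands at Hoxd8 on each day, and Hoxb has low bars throughout. The bars and label of 1 gene are left out.

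Levels were compared between families per kb of peak, as the authors' normalised counts averaged over all libraries of a day. Irx had the highest family median on day -2, with 120.4 normalised counts per kb over 6 genes, on day -1, with 112 over 4 genes, and on day 0, with 150.2 over 4 genes. The median over all genes with a named peak was 83.7, 63.9 and 74.7 normalised counts per kb. Within the family, Irx1, Irx2, Irx3 and Irx5 were named on all days, whereas Irx4 had 51.8 normalised counts per kb and Irx6 85.3 in peaks of 139 and 83 bp on day -2. At the low end stood Tbx with 49.6 on day -2, Prrx with 54.7 on day -1 and 37.9 on day 0. Families of 1 or 2 peaks on a day give no spread of their own.

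**Figure D3:**
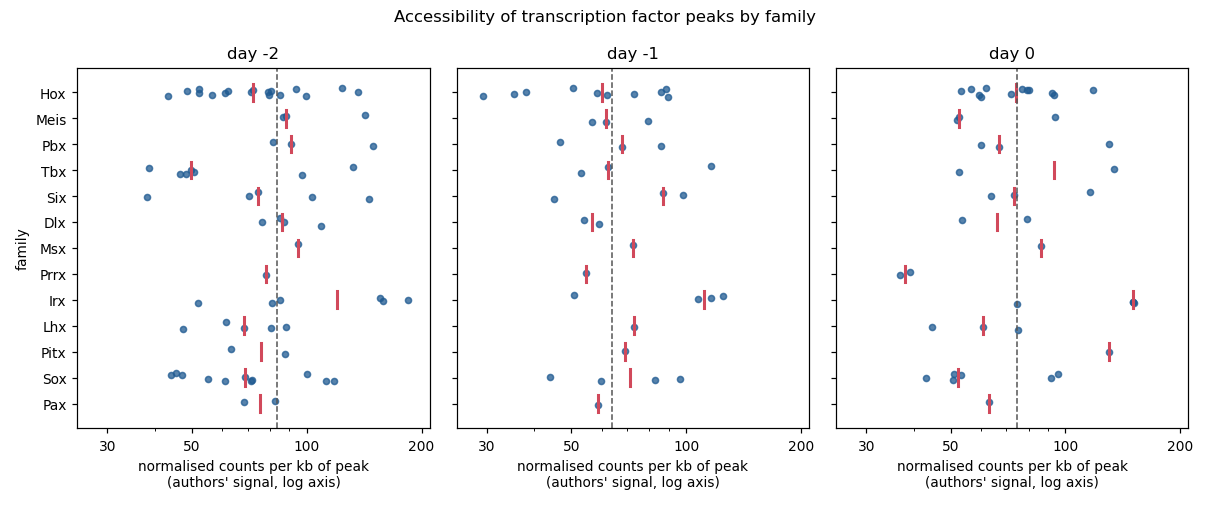
Authors' normalised counts per kb of peak (x axis, log scale) for each transcription factor member, by family and day. Points are genes, red bars are family medians and the dashed line is the median over all genes with a named peak on that day, at 83.7, 63.9 and 74.7. The Irx median lies right of the line on each day.

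By plain mean count the transcription factor peaks ranked low among named genes. Their median percentile was 28.3 on day -2, 39.2 on day -1 and 34.7 on day 0. Their median width stood at percentiles 25.3, 41.3 and 41.1, and per kb they stood at 44.1, 47.7 and 45.8. The median transcription factor peak was 418, 584 and 626 bp wide, against 703, 656 and 701 bp over all genes with a named peak.

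The highest member on each day was the peak of Irx2, which encodes an Iroquois homeobox factor (chr13:72628161-72629591 on day -2, 1430 bp). Its normalised counts, scaled within the day, were 233, 209, 249.5 and 259 with Kdm5c siRNA, against 271, 248, 225 and 179 with scramble on day -2. On day -1 they were 163, 160.1, 131 and 151 with Kdm5c siRNA, against 141, 199.998, 169 and 189 with scramble. On day 0 they were 272, 263 and 248.8 with Kdm5c siRNA, against 267, 295, 253 and 243 with scramble. The arms overlapped on each day, and scramble had the wider range on each.

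Irx3, known as a regulator of adipose tissue and body weight, was second on days -2 and -1 (chr8:91800927-91802299 on day -2, 1372 bp). It had 214, 209, 223 and 237 normalised counts with Kdm5c siRNA, against 221, 247, 229 and 184 with scramble on day -2, and 136, 157, 148 and 134 against 111, 139.5, 168 and 153 on day -1. On day 0 it had 184, 208 and 216 with Kdm5c siRNA, against 169, 184, 187 and 223 with scramble. Its arms overlapped too, with log2 fold changes of 0.01, 0.01 and 0.10 on days -2, -1 and 0 (SE 0.13, 0.14 and 0.14). Second on day 0 was Sox12, a factor expressed in many tissues, whose peak spanned 2301 bp on that day against 711 bp on day -1, with 230.5, 199.97 and 231 normalised counts with Kdm5c siRNA against 201, 271, 213 and 215 with scramble. Next below Irx3 on days -2 and -1 was Tbx3, a factor of limb and mammary development, with 208 and 134 normalised counts on the authors' scale (mean over libraries).

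Prrx1, Prrx2 and Sox4 had lower peaks than Irx2 and Irx3. Prrx1 (chr1:163313438-163313572 on day -2) had 6.20, 11.3, 7.36 and 5.99 normalised counts with Kdm5c siRNA, against 7.59, 11.8, 22.7 and 13.7 with scramble on day -2, too low for the test. On day -1 it had 21.0, 6.96, 23.3 and 18.1 against 9.59, 19.5, 21.0 and 17.1, and on day 0 21.4, 36.3 and 20.3 against 33.7, 17.6, 18.4 and 9.39, all overlapping. Prrx2 was named on day 0 alone, with 12.1, 13.0 and 31.9 normalised counts with Kdm5c siRNA against 6.74, 19.8, 31.9 and 13.4 with scramble. That peak lay 11363 bp from the listed start. On day -2 a peak at Prrx2 without a gene name (chr2:30865011-30865451) had a mean of 35.9 normalised counts with Kdm5c siRNA against 36.6 with scramble. Sox4, a factor of progenitor cells, had means of 68.1, 27.8 and 43.6 normalised counts with Kdm5c siRNA on days -2, -1 and 0, against 67.5, 23.3 and 36.6 with scramble. These counts were scaled within each day and are not compared between days.

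Libraries of Sox4 ranged on day -2 over 57.0, 80.7, 63.0 and 71.8 normalised counts with Kdm5c siRNA, against 50.6, 65.6, 88.8 and 65.2 with scramble. On day -1 they had 31.0, 27.8, 28.3 and 23.9 against 16.3, 25.1, 37.8 and 13.9, and on day 0 40.2, 48.4 and 42.3 against 43.8, 36.3, 38.1 and 28.2. Scramble spanned or overlapped the other arm on each day.

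No member was called between Kdm5c siRNA and scramble on any day. Tested were 57 of 77 members on day -2, 40 of 42 on day -1 and 46 of 50 on day 0, and the others had counts too low for the filter. Called were 0, 0 and 0 at an adjusted p (edgeR quasi-likelihood test, Benjamini-Hochberg over all peaks of the day) under 0.05, where 0.00404%, 0% and 0.00352% of all tested peaks were called. DESeq2 called 0, 0 and 0 members as well. At an unadjusted p under 0.05 there were 2, 1 and 2 members with edgeR and 2, 1 and 2 with DESeq2, or 3.51%, 2.50% and 4.35% of those tested with edgeR, against 4.63%, 5.38% and 5.99% of all tested peaks.

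The median log2 fold change of the tested members was 0.06, 0.05 and 0.01 on days -2, -1 and 0, beside 2.6e-05, -0.0030 and -0.0091 over all tested peaks. Positive values were found at 36 of 57, 25 of 40 and 24 of 46 members. Single members ranged from -0.38 to 1.49 on day -2, from -0.39 to 1.27 on day -1 and from -1.45 to 0.72 on day 0. The median standard error of a member was 0.23, 0.24 and 0.24. Of 35 genes tested on all 3 days, 9 had the same sign throughout, 7 positive and 2 negative. When counts were scaled by library totals alone, with mitochondrial reads included, the member medians became 0.50, 0.44 and 0.60, beside 0.44, 0.38 and 0.56 over all peaks. Under that scaling 4 of 57 members were called on day -2, where 1224 of all 49455 tested peaks were called. With mitochondrial peaks left out and the usual scaling, the member medians were 0.06, 0.04 and 0.0027, and 0, 0 and 0 members were called.

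**Figure D4:**
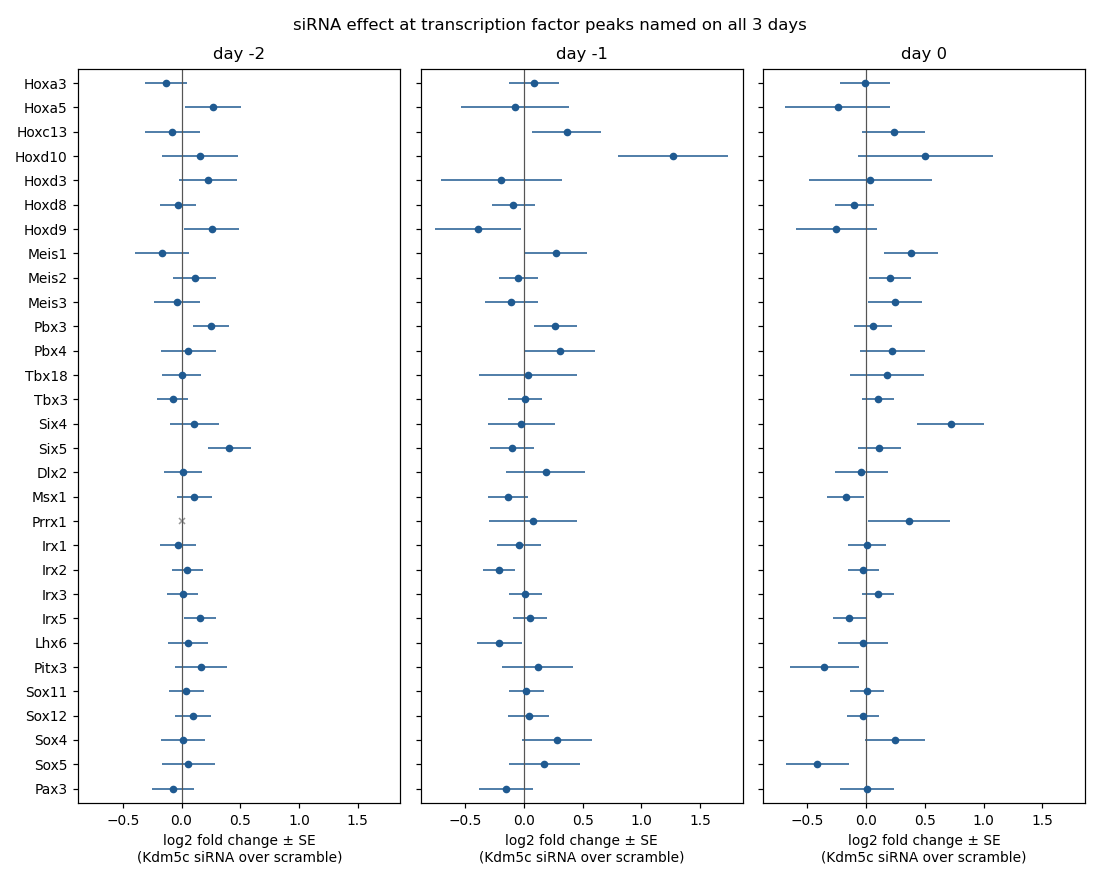
Log2 fold change of normalised counts, Kdm5c siRNA over scramble (x axis, with standard error from edgeR), at transcription factors named on all 3 days, ordered by family. A cross marks Prrx1 on day -2, which was not tested. Hoxd10 on day -1 at 1.27 and Six4 on day 0 at 0.72 lie farthest to the right, and neither was called.

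Among the 5 members with the smallest p on day -2 were Hoxc8, Six5, Pbx3 and Hoxc10. Hoxc8, a gene of trunk position, had 16.1, 26.4, 8.999 and 13.2 normalised counts with Kdm5c siRNA against 3.80, 1.31, 5.92 and 10.5 with scramble, or a log2 change of 1.49 (SE 0.57, unadjusted p = 0.00939, adjusted p = 0.98 with edgeR). The arms overlapped, since 1 Kdm5c siRNA library lay below the highest scramble library. On day 0 a peak about as narrow (141 bp) at another position, inside the Hoxc8 span, had 10.7, 0.930 and 3.30 normalised counts with Kdm5c siRNA against 11.2, 16.5, 8.60 and 13.4 with scramble, or a log2 change of -1.45 (SE 0.72, adjusted p = 0.821 with edgeR). With 1 library left out it ranged from -2.39, without Kdm5c siRNA library 1, to -0.96, without Kdm5c siRNA library 2. The signs on days -2 and 0 were opposite, and the 2 peaks do not share a base.

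Six5, known from the myotonic dystrophy locus, was the only member on day -2 whose arms did not overlap, as for 2.87% of all tested peaks (1.51% with Kdm5c siRNA higher and 1.35% lower). It had 84.3, 70.1, 96.5 and 89.8 normalised counts with Kdm5c siRNA against 60.7, 55.1, 70.0 and 68.4 with scramble, or 85.2 ± 11.2 against 63.6 ± 6.95 (SD, n = 4 each). The log2 fold change was 0.41 (SE 0.18, unadjusted p = 0.0268, adjusted p = 0.98 with edgeR). On day -1 Six5 had 56.9 ± 3.81 with Kdm5c siRNA against 61.1 ± 15.0 with scramble (n = 4 each), and on day 0 79.9 ± 1.63 (n = 3) against 74.3 ± 7.44 (n = 4). These arms overlapped. Pbx3 and Hoxc10 had log2 fold changes of 0.25 and 0.40 on day -2 (SE 0.15 and 0.26), each with an adjusted p (edgeR) of 0.98. Without Kdm5c siRNA library 1 the Hoxc10 value was 0.13, and over the left-out libraries it reached up to 0.54.

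Among the 5 members with the smallest p on day -1 were Hoxd10, Irx2 and Pbx3. Hoxd10, a gene of limb position, had 10.01, 26.7, 14.2 and 17.4 normalised counts with Kdm5c siRNA against 7.67, 4.65, 8.40 and 7.48 with scramble. All 4 Kdm5c siRNA libraries lay above all scramble libraries, as for 3.27% of tested peaks in either direction (1.58% with Kdm5c siRNA higher and 1.69% lower). The log2 fold change was 1.27 (SE 0.47, unadjusted p = 0.00811, adjusted p = 0.856 with edgeR). On day -2 Hoxd10 had 27.05 ± 10.7 normalised counts with Kdm5c siRNA against 23.8 ± 7.67 with scramble (SD, n = 4 each), and on day 0 14.1 ± 5.12 (n = 3) against 9.72 ± 6.65 (n = 4), with overlap on both. Pbx3 had a log2 fold change of 0.27 on day -1 (SE 0.18, adjusted p = 0.935 with edgeR), and Irx2 of -0.21 (SE 0.14, adjusted p = 0.928 with edgeR).

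Pbx3 and Pbx4, cofactors of Hox proteins, had positive log2 fold changes on each day. For Pbx3 they were 0.25, 0.27 and 0.06 on days -2, -1 and 0, and for Pbx4 0.06, 0.31 and 0.22. None of these was called.

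On day 0 the smallest p were those of Six4, Hoxc8, Meis1, Sox5 and Hoxa13. Six4, a sine oculis homeobox factor, had 33.5, 50.2 and 40.1 normalised counts with Kdm5c siRNA against 42.7, 17.6, 17.2 and 22.8 with scramble, with 1 scramble library inside the range of the other arm. Its log2 fold change was 0.72 (SE 0.28, unadjusted p = 0.0113, adjusted p = 0.712 with edgeR), and 1.11 without scramble library 1, with a range from 0.56 over the left-out libraries. Another Six4 peak without a gene name (chr12:73110210-73110980 on day -2) was lower with Kdm5c siRNA on day -2. All its Kdm5c siRNA libraries lay below all scramble libraries, as for 1.35% of all tested peaks. Its log2 fold change was -0.46 (SE 0.19, unadjusted p = 0.0162, adjusted p = 0.98 with edgeR) on day -2 and 0.34 (SE 0.23) on day -1. Meis1, a cofactor of Hox proteins, had 59.0, 49.3 and 57.1 normalised counts with Kdm5c siRNA against 45.0, 27.5, 50.4 and 46.9 with scramble, which overlap. Its log2 fold change was 0.38 (SE 0.23, adjusted p = 0.886 with edgeR), and 0.21 without scramble library 2, the lowest of the left-out values, which reached up to 0.47.

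Arms did not overlap on day 0 at Hoxa13, Msx1 and Irx5, or 6.52% of the tested members, against 6.22% of all tested peaks. All 3 were lower with Kdm5c siRNA, as for 3.11% of all tested peaks. Hoxa13, a gene of distal limb position, had 6.70, 8.37 and 8.24 normalised counts with Kdm5c siRNA against 11.2, 27.5, 9.83 and 9.39 with scramble, or a log2 change of -0.89 (SE 0.58). Msx1, a factor of progenitor cells in limb and face, had 107, 104 and 117 against 125, 118, 124 and 130.1, or a log2 change of -0.17 (SE 0.16). Irx5 had 166, 175 and 178 against 179.8, 203, 192 and 193, or a log2 change of -0.14 (SE 0.14). No chosen peak had arms apart on 2 or more days, while the Meis2 peak matched over days, described with the day changes, did. Sox5, a factor of cartilage formation, had a log2 fold change of -0.42 on day 0 (SE 0.27, adjusted p = 0.902 with edgeR). A higher Sox5 peak without a gene name (chr6:143915872-143916809 on day 0) had 0.06 (SE 0.21) on that day.

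Meis1 on the earlier days had 58.3, 31.7, 44.2 and 44.3 normalised counts with Kdm5c siRNA against 32.9, 59.0, 48.3 and 56.3 with scramble (day -2), and 33.0, 30.2, 34.4 and 34.7 against 30.7, 35.3, 16.8 and 24.6 (day -1). The arms overlapped on both days. At their chosen peaks the 3 Meis genes had positive log2 fold changes on day 0, with a family median of 0.24, after medians of -0.04 and -0.05 on days -2 and -1. The chosen Meis2 peak was not the same on day -2 as on days -1 and 0. The other Meis2 peak, matched over days and described with the day changes, was lower with Kdm5c siRNA on day 0 and was not called. The named Tbx15 peak had 29.7, 25.6, 40.1 and 27.5 normalised counts with Kdm5c siRNA against 35.4, 19.7, 41.4 and 48.3 with scramble on day -2, and 28.0, 27.8, 27.3 and 15.9 against 23.01, 33.5, 16.8 and 17.1 on day -1.

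Changes over days were read on 13672 nuclear peaks that overlapped 1 to 1 by at least 50% on all 3 days, of which 13654 were tested in 1 fit over the 23 libraries. They held 26 members, 23 of them transcription factors. The other 10 factors named on all days, Dlx2, Hoxa5, Hoxd3, Hoxd9, Hoxd10, Pitx3, Prrx1, Sox4, Sox12 and Tbx18, had no such match and were left out of this comparison. Levels over days are CPM, counts scaled to a common effective library size, in that fit. At Meis2 the matched peak was the chosen one on day -2 only.

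In scramble, 8 of 26 members differed on day 0 from day -2, 6 higher and 2 lower, where 20.7% of all tested peaks were called (9.28% higher and 11.4% lower). Higher on day 0 were Meis2, Irx2, Six5, Pbx3 and Irx5 among others, and Six4 was among the lower ones. On day -1 against day -2, 3 of 26 were called, Meis2 and Six5 higher and 1 lower, where 5.76% of peaks were called (3.22% higher and 2.54% lower). On day 0 against day -1, Irx1 and Pbx3 were higher, 2 of 26 where 6.87% were called (2.69% higher and 4.18% lower). The member median was 0.19 on the log2 scale for day 0 against day -2, beside 0.02 over all tested peaks. Fewer of the 8 were called without single scramble libraries, namely 3 without library 4 of day -2, 4 without library 2 or library 4 of day 0, and 5 without library 1 of day -2 or library 3 of day 0. Peak borders differ between days, and with the peak width as an offset Irx2 alone of the 8 stayed called. Without library 2 of day -1, 1 member was called on day -1 against day -2. The shares of all peaks called under these alternatives are not given beside them.

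With Kdm5c siRNA, 3 of 26 members differed on day 0 from day -2, with Irx2 and Meis1 higher and 1 lower, where 15.1% of peaks were called (7.51% higher and 7.60% lower). On day -1 against day -2, 1 member was called (background 6.41%, with 3.66% higher and 2.75% lower), and Irx1 and Irx2 rose on day 0 against day -1 (background 3.79%, with 1.50% higher and 2.29% lower). The difference of day effects between the arms was tested as an interaction, and 0 members and 0 of all peaks passed in each of the 3 day pairs. At an unadjusted p under 0.05 the interactions held Meis2 and Six5 for day -1 against day -2 and Meis2 for day 0 against day -2, and DESeq2 also called 0. The share of all tested peaks under that unadjusted threshold is not given, so no excess among the members is read from these names.

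Irx2 rose in both arms. With scramble it had 265, 296, 251 and 238 CPM on day 0 against 209, 184, 165 and 138 CPM on day -2, and all day 0 libraries lay above all day -2 libraries. The log2 fold change was 0.61 (SE 0.12, adjusted p = 4.6e-05 with edgeR). With Kdm5c siRNA it had 269.9, 256 and 245 CPM on day 0 against 179.7, 166, 184 and 195 CPM on day -2, again without overlap, with a log2 fold change of 0.50 (SE 0.13, adjusted p = 0.00233 with edgeR). The deposited peak was 1430 bp wide on day -2 and 1655 bp on day 0. With the peak width as an offset the log2 fold changes were 0.40 (adjusted p = 0.0137) in scramble and 0.29 (adjusted p = 0.138) with Kdm5c siRNA. In scramble it stayed called in all 30 alternatives.

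Meis2, a Hox cofactor of limb and heart development, had 83.6, 81.8, 88.8 and 85.3 CPM on day 0 against 41.97, 66.2, 52.2 and 54.5 CPM on day -2 in scramble, without overlap, or a log2 change of 0.66 (SE 0.17, adjusted p = 0.00279 with edgeR). With Kdm5c siRNA it had 66.5, 60.7 and 61.1 CPM on day 0 against 54.5, 64.2, 48.8 and 68.6 CPM on day -2, which overlap, or a log2 change of 0.08 (SE 0.18, adjusted p = 0.81). Between the arms this peak had 48.1, 55.7, 60.7 and 49.9 normalised counts with Kdm5c siRNA against 66.2, 62.3, 82.6 and 71.6 with scramble on day -1, in the fit of that day. On day 0 it had 66.997, 62.3 and 62.1 against 84.3, 81.5, 89.7 and 87.2. All Kdm5c siRNA libraries lay below all scramble libraries on both days, as for 1.69% and 3.11% of all tested peaks. The log2 fold changes were -0.39 on day -1 (SE 0.18, unadjusted p = 0.0345, adjusted p = 0.898 with edgeR) and -0.43 on day 0 (SE 0.19, unadjusted p = 0.0218, adjusted p = 0.776 with edgeR), so neither was called. On day -2 it was 0.11 (SE 0.18), with overlap. The interaction for day 0 against day -2 was -0.57 (SE 0.25, unadjusted p = 0.0246, adjusted p = 0.726 with edgeR). A second, higher peak about 1 kb away had a log2 fold change of 0.48 (SE 0.17, adjusted p = 0.0405) with Kdm5c siRNA and of 0.11 (SE 0.16, adjusted p = 0.707) in scramble for day 0 against day -2. That peak bears the name on days -1 and 0 but not on day -2, and it was looked at after the values had been seen. Between the arms its log2 fold change was -0.19 on day -2 (SE 0.17), with overlap. On day 0, where it was the chosen peak, it was positive, at no less than the lowest Meis value of 0.20. The 2 Meis2 peaks thus had opposite signs between the arms on days -2 and 0, and neither was called.

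Six5 had 73.5, 64.1, 77.9 and 78.7 CPM on day 0 against 46.9, 40.9, 51.5 and 52.7 CPM on day -2 in scramble, with all day 0 libraries higher, or a log2 change of 0.60 (SE 0.18, adjusted p = 0.00942 with edgeR). With Kdm5c siRNA it had 79.8, 76.04 and 80.02 CPM on day 0 against 65.0, 55.8, 71.1 and 67.7 CPM on day -2, or a log2 change of 0.28 (SE 0.18, adjusted p = 0.306). The day -2 level with Kdm5c siRNA, 64.9 ± 6.59 CPM, stood beside 48.0 ± 5.34 CPM in scramble (SD, n = 4 each). Six4 had 42.3, 17.7, 17.03 and 22.3 CPM on day 0 against 34.2, 34.1, 39.2 and 57.0 CPM on day -2 in scramble, with overlap through 1 library, or a log2 change of -0.74 (SE 0.26, adjusted p = 0.0333 with edgeR), which was -1.14 without scramble library 1 of day 0 and was not called without scramble library 4 of day -2 (-0.52) or without scramble library 2, 3 or 4 of day 0. With Kdm5c siRNA it was -0.16 (SE 0.25, adjusted p = 0.732).

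Among the Hox cofactors, Pbx3 had 107 ± 10.2 CPM on day 0 against 81.5 ± 9.47 CPM on day -2 in scramble (SD, n = 4 each), or a log2 change of 0.40 (SE 0.15, adjusted p = 0.0464 with edgeR). With Kdm5c siRNA it was 0.17 (SE 0.15) and was not called. Irx5 had 190.1 ± 10.3 CPM on day 0 against 147 ± 16.8 CPM on day -2 in scramble (n = 4 each), or a log2 change of 0.38 (SE 0.12, adjusted p = 0.0188), and 0.04 (SE 0.13) with Kdm5c siRNA. Irx1 had 112 ± 7.97 CPM on day 0 against 74.0 ± 5.03 CPM on day -1 in scramble, and 112 ± 2.54 (n = 3) against 71.2 ± 10.8 CPM with Kdm5c siRNA, with log2 fold changes of 0.61 and 0.63 (adjusted p = 0.00756 and 0.0103 with edgeR). The Irx1 peak was 1125 bp wide on day -1 and 1437 bp on day 0, and with the width as an offset neither was called, at 0.26 in scramble (adjusted p = 0.375) and 0.28 with Kdm5c siRNA (adjusted p = 0.414).

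**Figure D5:**
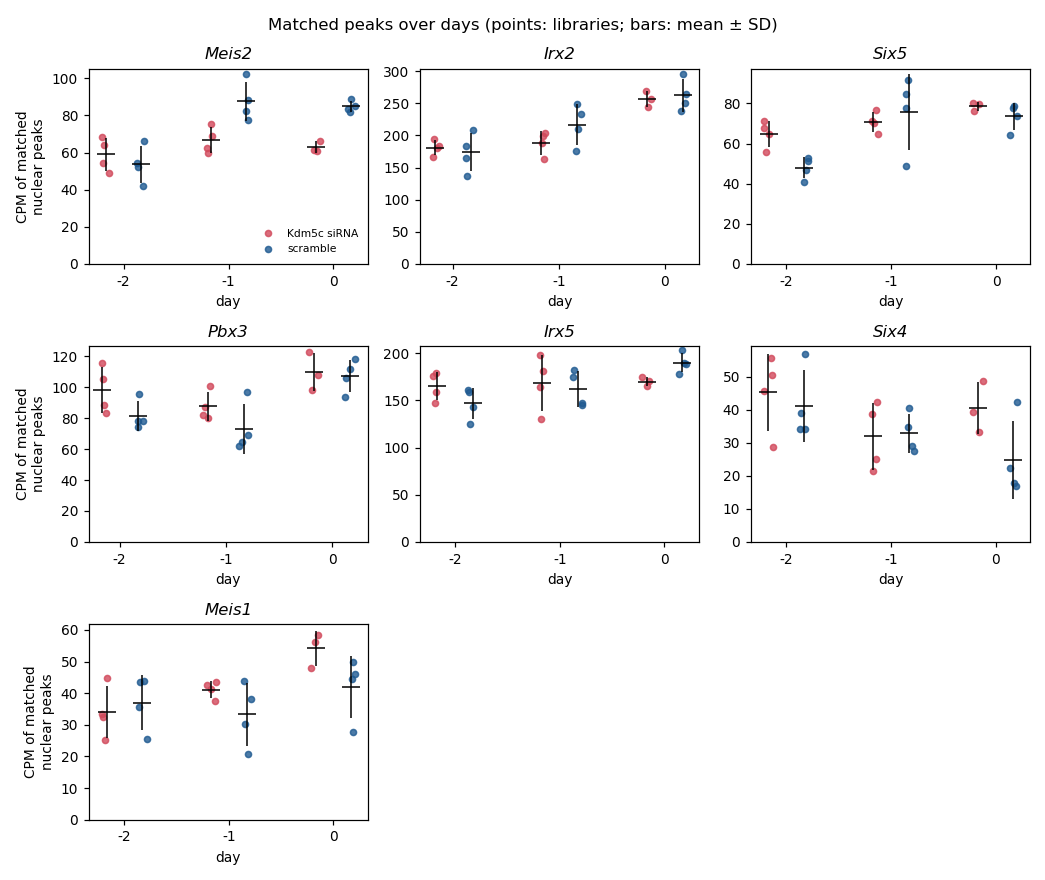
CPM of the matched peak (y axis, from 0) on days -2, -1 and 0 for 6 members called in scramble on day 0 against day -2 and for Meis1, with Kdm5c siRNA left of scramble. Points are libraries and black bars show the mean ± SD. Irx2 rises to 257 CPM with Kdm5c siRNA and 262 CPM with scramble on day 0, and Meis2 is higher in scramble than with Kdm5c siRNA on days -1 and 0.

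Meis1 had 58.5, 48.0 and 56.2 CPM on day 0 against 44.9, 25.2, 32.6 and 33.4 CPM on day -2 with Kdm5c siRNA, without overlap, or a log2 change of 0.69 (SE 0.24, adjusted p = 0.0343 with edgeR). In scramble it was 0.17 (SE 0.24, adjusted p = 0.678). Its peak was 524 bp wide on day -2 and 861 bp on day 0, and with the width as an offset the value was -0.02 with Kdm5c siRNA and -0.55 in scramble.

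Tbx15 showed the clearest change over days at a site without a gene name, which was looked at after the values had been seen. Its highest peak lay inside the gene, 1066 bp wide on day -2 (chr3:99253117-99254183) and 1063 bp on day 0, and had 121.5, 94.1 and 137 raw counts per library on days -2, -1 and 0. With scramble it had 129, 156, 131 and 117 CPM on day 0 against 90.8, 99.3, 89.2 and 68.8 CPM on day -2, and with Kdm5c siRNA 134, 127 and 144 against 107, 88.7, 109 and 93.0 CPM. All day 0 libraries lay above all day -2 libraries in both arms. The log2 fold changes were 0.63 (SE 0.14, adjusted p = 0.000329) in scramble and 0.45 (SE 0.14, adjusted p = 0.0209) with Kdm5c siRNA, and with the width as an offset 0.64 (adjusted p = 0.000511) and 0.45 (adjusted p = 0.0297, all edgeR). Between the arms its log2 fold change was 0.18, -0.02 and 0.03 on days -2, -1 and 0 (SE 0.15, 0.16 and 0.15). It was called in 29 of 29 alternatives in scramble and in 25 of 29 with Kdm5c siRNA.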

How the data were processed

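Per the labels, the 23 libraries are ATAC-seq of nuclei. The authors deposited whole-number counts of reads per peak for each day, and these entered the tests. They also deposited a normalised signal for peaks with a gene name, which equals the raw count divided by 1 constant per library within a tolerance of 1e-08. Tools named, per the submitters' processing notes, are DESeq2 1.24.0, HTSeq 0.9.1, MACS2 2.1.1, Bowtie2 2.2.9 and cutadapt 2.3. The sources used here do not give how peaks were pooled, whether reads were shifted for the transposase, the naming rule, or whether starts count from 0 or 1. Coordinates are on GRCm38.

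Each day was tested alone with edgeR 4.0.16 in R 4.3.3 (TMM, filterByExpr, quasi-likelihood F test, Benjamini-Hochberg, called under 0.05), so fold changes are relative to the bulk of peaks. Normalised counts are raw counts over relative effective library size. Standard errors come from the F statistic. Day changes used 1 fit of 6 groups on peaks matched by bedtools 2.31.1. DESeq2 1.42.0 was the second tool, and the fits were tested on simulated data. Sequences and gene spans come from RefSeq (GRCm38.p6).

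The members, families and lists were chosen with earlier results of these data known. Values between arms are given in full for the 5 members with the smallest p per day, called members and members whose arms do not overlap on 2 or more days, and over days for members called in scramble on day 0 against day -2. The levels of chosen genes are given by library. Some of these genes are not reported here, though the counts include them. Other members are named for their counts, and Irx5, Msx1, Dlx1, the matched Meis2 peak between arms, the second Meis2 peak and the Tbx15 peak inside the gene were named after their values were seen. So were the peaks without a gene name at Six4, Sox5 and Prrx2.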

Additional observations from a re-analysis of the deposited data

Results flagged for a closer look

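Of 91 groups of 4 libraries at the named members, 5 had 1 library far from the other 3 by Dixon's criterion, or 5.49%, where chance gives about 1 in 20. Hoxd10 on day -2 had 43.1 normalised counts in Kdm5c siRNA library 4, and the other 3 lay at 21.1 to 22.9. Meis2 on day -1 had 82.5 in Kdm5c siRNA library 4, with the others at 67.1 to 68.8. The named Tbx15 peak on day -1 had 15.9 in Kdm5c siRNA library 4, with the others at 27.3 to 28.0. Hoxa13 on day 0 had 27.5 in scramble library 2, with the others at 9.39 to 11.2, and it is among the members whose arms did not overlap. Dlx2 on day 0 had 83.2 in scramble library 4, with the others at 39.3 to 45.1.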

How the results depend on the processing

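Between the arms, 0 members were called on each day under each alternative, including DESeq2 and every left-out library, except 4 on day -2 with total counts alone. There 1224 of all 49455 tested peaks were called. Under that scaling the median log2 fold changes of members were 0.50, 0.44 and 0.60 on days -2, -1 and 0, and the signs turned at Irx2 on day -1 (0.20) and Sox5 on day 0 (0.18). Total counts include the mitochondrial reads, whose share was lower with Kdm5c siRNA. With 1 library left out the medians ranged from 0.0041 to 0.080 on day -2, from 0.0093 to 0.070 on day -1 and from -0.024 to 0.058 on day 0.

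Over days, leaving out 1 library gave 1 to 3 members called in scramble for day -1 against day -2, 1 to 2 for day 0 against day -1 and 3 to 8 for day 0 against day -2. With Kdm5c siRNA it gave 0 to 2, 1 to 2 and 2 to 3. Matching at 80% overlap kept 10 members and called 0, 0 and 1 in scramble and 0, 0 and 1 with Kdm5c siRNA. With peak width as an offset, 6 were called in scramble for day -1 against day -2, and with Kdm5c siRNA 2 for day -1 against day -2 and 0 for day 0 against day -1. Total nuclear counts alone gave 5 in scramble for day 0 against day -2, and DESeq2 gave 6. The shares of all peaks called under these alternatives are not given, so whether members moved more than other peaks cannot be read from these counts.

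For day 0 against day -2, the width offset turned the sign with Kdm5c siRNA at Meis2 (-0.29), Six5 (-0.065), Pbx3 (-0.14), Irx5 (-0.055) and Six4 (0.20). With Kdm5c siRNA, Irx5 was also -0.027 with total nuclear counts alone, -0.051 at 80% overlap and -0.0059 without Kdm5c siRNA library 1 of day -2, and Meis2 was -0.0051 without Kdm5c siRNA library 3 of day -2. None of these Kdm5c siRNA values was called. Where no value above shows it, the cause was not tested.

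Family genes with a peak numbered 107, 58 and 64 on days -2, -1 and 0 when any peak within 1 kb counted, and 35, 20 and 28 with at least 30 raw counts. No share over all genes was computed under these rules. Per kb, the median percentiles of the transcription factor peaks were 44.1, 47.7 and 45.8.

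Same-numbered libraries of the arms had deviations correlated at -0.04 to 0.15 in 11 pairs, 1 of them over 0.1, so the numbers were not taken as pairing. With a replicate block 0, 0 and 0 members were called between arms, with medians of 0.06, 0.03 and 0.03, and 3, 2 and 8 over days in scramble and 1, 2 and 3 with Kdm5c siRNA (day -1 against -2, day 0 against -1, day 0 against -2), the same counts as without it.

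With a median standard error of 0.23 to 0.24, changes of that size were not detectable at most members. Larger ones also went uncalled, such as a log2 fold change of 1.27 at Hoxd10 on day -1 and of 0.72 at Six4 on day 0. The lack of calls therefore does not exclude changes above the median standard error. On days -2, -1 and 0, 20, 2 and 4 members were too low to test.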

Other observations

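Paralogues within a family did not share 1 state. Irx1, Irx2, Irx3 and Irx5 had peaks of 1039 to 1655 bp on each day, while Irx4 and Irx6 had 139 and 83 bp on day -2 and no named peak later. Pax3, a factor of neural crest and muscle progenitors, had 74.9, 39.4 and 45.5 normalised counts on days -2, -1 and 0 (authors' scale within each day, mean over libraries). On the common scale of the matched peaks it had 60.1, 52.6 and 48.2 CPM in scramble and 57.4, 47.8 and 46.8 CPM with Kdm5c siRNA. Pax8 had a peak without a gene name of 55.9 ± 9.25 normalised counts with Kdm5c siRNA against 71.1 ± 11.2 with scramble on day -2 (SD, n = 4 each, log2 fold change -0.36, SE 0.20, adjusted p = 0.98 with edgeR). The arms overlapped, and the log2 fold change was 0.11 (SE 0.22) on day -1 and -0.03 (SE 0.24) on day 0. The other peak at Pitx3 (chr19:46135383-46136758), which has no gene name, had 127 ± 26.4 normalised counts with Kdm5c siRNA against 88.6 ± 15.7 with scramble on day -2, or a log2 change of 0.52 (SE 0.16, unadjusted p = 0.00154, adjusted p = 0.98 with edgeR), and 0.08 (SE 0.25) on day -1. Its arms overlapped on day -2. The named Pitx3 peak had log2 fold changes of 0.17, 0.12 and -0.36 on days -2, -1 and 0, none of them called. The unnamed peaks at Pax8 and Pitx3 were looked at after the values had been seen.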
